A study of Mus musculus with 6 samples.

Results

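Vcam1, the endothelial adhesion molecule for leukocytes, was examined with 9 related genes in the liver of mice that lack arylsulfatase B (ARSB), the lysosomal enzyme needed to break down sulfated glycosaminoglycans such as dermatan sulfate. The 10 genes were Vcam1, Icam1 and Icam2 (adhesion molecules of the immunoglobulin family), Sele and Selp (selectins), and Itga4, Itgb1, Itgb7, Itgal and Itgb2 (integrin subunits of leukocytes). Vcam1 was taken up because it was already known to differ between these groups, and the others because they take part in the same steps of leukocyte adhesion. Of the 10 genes, 9 had a probe set whose array annotation gives exactly 1 gene symbol, out of 19938 genes with such a probe set, and each of the 9 had 1 such probe set. No such probe set was found for Selp, and it was not analysed here. Since the genes were chosen with this comparison known, their differences are given as a description without p-values.

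Hepatic tissue came from 3 homozygous ARSB-null and 3 control mice, with 1 array per liver. All were untreated males of 12 weeks on the C57BL/6J background, and both groups were killed after ketamine/xylazine by cervical dislocation, per the labels. The paper's methods instead name inhaled carbon dioxide with cervical dislocation, and the sources were not reconciled here. The null allele is carried by every cell of the mouse and not by the liver alone. The homozygous mice came from a colony of their own, and no source used here calls the C57BL/6J controls littermates, so colony and genotype cannot be told apart. The mice of both groups are numbered 4, 5 and 6, and the labels do not say what a shared number stands for. All values are log2 signals of one probe set, and the levels of different genes are not compared. The tissue was whole liver, in which fewer cells of a type and less RNA per cell cannot be told apart.

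Arsb itself was measured first, as a check of the labels. Its brighter probe set gave 7.63, 7.46 and 7.64 in ARSB-null mice 4, 5 and 6 and 10.21, 10.23 and 10.21 in control mice 4, 5 and 6. All 3 null livers were far below all 3 controls, with a log2 difference of -2.64 (limma, adjusted p = 0.000639), and the other Arsb probe set differed by -2.66. All 10 hepatocyte markers were measured, and their mean log2 signal was 13.55 to 13.69 in the 6 livers, against array medians of 6.50 to 6.60. Over all 35556 probe sets, 7 (0.0197%) were past an adjusted p of 0.05, 2 of them higher and 5 lower in ARSB-null liver. The groups did not overlap at 4239 probe sets (11.9%), and 2112 (5.94%) had an unadjusted p under 0.05.

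Leukocytes leave the blood in a series of steps. E-selectin (Sele) and P-selectin (Selp) on activated endothelium, and in the case of P-selectin also on platelets, catch passing cells by their sugar ligands and let them roll. Firm arrest follows when activated integrins of the leukocyte bind immunoglobulin-family molecules of the vessel wall: alpha4beta1 (Itga4 with Itgb1) binds VCAM1, alphaLbeta2 (Itgal with Itgb2) binds ICAM1 and ICAM2, and alpha4beta7 (Itga4 with Itgb7) binds MAdCAM1 and also VCAM1. In liver sinusoids rolling by selectins is thought to matter less than in other vessels, and VCAM1, ICAM1 and other molecules on sinusoidal endothelium carry much of the adhesion. Vcam1, Icam1 and Sele are textbook targets of NF-kappaB, the transcription factor that TNF and IL-1 activate, whereas Icam2 is held at a steady level by resting endothelium. VCAM1 is also found on stellate cells and on some macrophages, Kupffer cells among them.

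Icam1 and Sele are shown here by their promoters, since both are known NF-kappaB targets. The RefSeq promoter table (GRCm38.p6) held an entry for 6 of the 10 genes, namely Icam1, Itga4, Itgb1, Itgb7, Sele and Selp. A kappaB-like motif, GGANNNTCC, which reads the same on both strands, was looked for in the 250 bases before each start site. This motif was chosen after the promoters had been read. It was found in 2 of the 6 promoters, those of Icam1 and Sele, and in 2387 of 32851 promoters of the whole table (7.27%). Both stretches run 5′ to 3′ on the plus strand from 200 to 51 bases before the start site, that of Icam1 at chr9:21015740-21015889 and that of Sele at chr1:164048034-164048183, with the motif in capitals.
Icam1: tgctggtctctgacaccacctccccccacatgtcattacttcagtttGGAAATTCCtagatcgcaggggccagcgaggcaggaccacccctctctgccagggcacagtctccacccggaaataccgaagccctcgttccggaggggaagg
Sele: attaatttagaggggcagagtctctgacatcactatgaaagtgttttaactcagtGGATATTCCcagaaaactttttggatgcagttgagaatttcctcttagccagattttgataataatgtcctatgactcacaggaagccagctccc
The motif begins 153 bases before the start site of Icam1 and 145 bases before that of Sele. A match of letters is a description of the sequence, and the arrays did not measure binding there. The table had no entry for Vcam1, Icam2, Itgal and Itgb2. The part of NF-kappaB in the Vcam1 result was not tested.

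Vcam1 was higher in every ARSB-null liver than in any control, and no other gene of the group differed by a comparable amount. Its log2 signal was 9.51, 9.44 and 9.57 in ARSB-null mice 4, 5 and 6 and 7.90, 8.27 and 7.94 in control mice 4, 5 and 6. The lowest null liver lay 1.17 above the highest control. The means were 9.51 ± 0.07 and 8.04 ± 0.21 (SD, n = 3 each), a log2 difference of 1.47 with an SE of 0.13 and a 95% interval of 1.17 to 1.78, which is 2.78-fold (2.25 to 3.43). The null livers were closer to one another than the controls were, and control mouse 5 was the highest of its group. Within the numbers, the null mouse exceeded the control of the same number by 1.62 for mice 4, 1.17 for mice 5 and 1.63 for mice 6. The 2 mice numbered 4 deviated from their group means in a like way over all probe sets (r = 0.396), and without both of them the difference of Vcam1 was 1.40. Leaving out any single array gave 1.40 to 1.59.

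**Figure D1:**
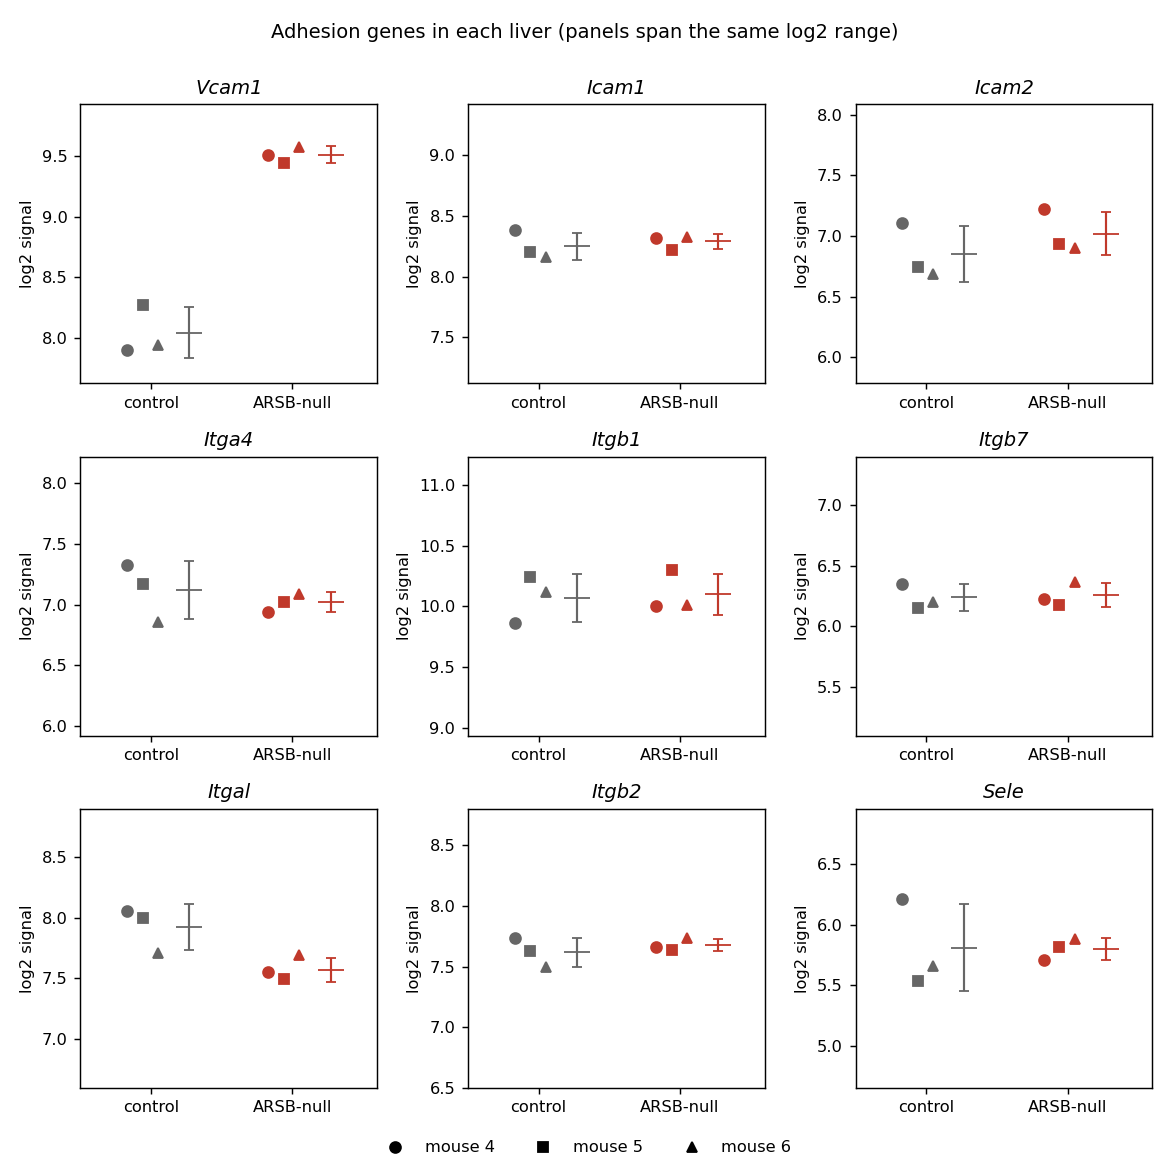
Log2 signal of the 9 measured adhesion genes in each liver, with control mice in grey and ARSB-null mice in red; the marker shape gives the number of the mouse, the bar to the right of the points is the mean and its whiskers are the SD (n = 3). All panels span the same log2 range. Vcam1 stands at 9.44 to 9.57 in the null livers and 7.90 to 8.27 in the controls, Itgal is lower in the null livers with a gap of 0.02, and the groups overlap in the other 7 panels.

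Icam1, the inducible ligand of beta2 integrins, was nearly the same in both groups. It gave 8.32, 8.22 and 8.33 in the null livers 4, 5 and 6 and 8.38, 8.20 and 8.16 in the controls. The highest of all 6 livers was control mouse 4, and the groups overlapped. The means were 8.29 ± 0.06 and 8.25 ± 0.11 (SD, n = 3 each), with a difference of 0.04 and a 95% interval of -0.20 to 0.29. That interval ends below the lower bound of 1.17 for Vcam1. This is a description only, since Vcam1 was chosen on this comparison.

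Icam2, a ligand of alphaLbeta2 that resting endothelium carries, read 7.22, 6.93 and 6.90 in the null livers and 7.11, 6.74 and 6.69 in the controls, in the order of mice 4, 5 and 6. Both mice numbered 4 were the highest of their groups, so the groups overlapped although the null mouse exceeded its same-numbered control each time, by 0.12, 0.19 and 0.21. The means were 7.02 ± 0.18 and 6.85 ± 0.23 (SD, n = 3 each), and the difference was 0.17 with a 95% interval of -0.19 to 0.53. With the replicate number as a block the interval narrowed to -0.05 to 0.39, which still included 0.

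Sele, the selectin that cytokines induce on endothelium, showed no shift of the means, with 5.71, 5.82 and 5.88 in the null livers and 6.21, 5.54 and 5.66 in the controls. Control mouse 4 was the highest liver and control mouse 5 the lowest, so the null livers lay inside the spread of the controls. The means were 5.80 ± 0.09 and 5.81 ± 0.36 (SD, n = 3 each), and the difference had a 95% interval of -0.44 to 0.43, the widest among the 9 genes. Without both mice numbered 4 it was 0.25. Sele and Itgb7 had mean signals under the median of every array, and since the deposited values carry no detection calls, it is not known whether these signals stand above background.

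The integrin subunits that pair to bind VCAM1 did not follow Vcam1. Itga4, the alpha4 chain, gave 6.94, 7.02 and 7.09 in the null livers and 7.33, 7.17 and 6.86 in the controls. The controls spanned the null livers on both sides. The means were 7.02 ± 0.08 and 7.12 ± 0.24 (SD, n = 3 each), a difference of -0.10 with a 95% interval of -0.43 to 0.23. Itgb1, the beta1 chain, which nearly all cells of the liver carry and which joins many alpha chains, read 10, 10.30 and 10.01 in the null livers and 9.86, 10.24 and 10.12 in the controls. Mice numbered 5 were the highest of both groups. The difference was 0.03 with a 95% interval of -0.31 to 0.37. Itgb7, the beta7 chain that joins alpha4 on gut-homing lymphocytes, gave 6.23, 6.18 and 6.37 in the null livers and 6.35, 6.15 and 6.20 in the controls. Its groups overlapped, with a difference of 0.03 and a 95% interval of -0.23 to 0.28.

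Itgal, the alphaL chain of the lymphocyte integrin LFA-1, was the only other gene of the group without overlap, and it lay lower in ARSB-null liver. Its log2 signal was 7.55, 7.49 and 7.69 in the null livers and 8.05, 8.0 and 7.71 in the controls. Control mouse 6 lay 0.02 above null mouse 6, so the separation rests on a gap far smaller than the SD of either group. The means were 7.57 ± 0.10 and 7.92 ± 0.19 (SD, n = 3 each), a difference of -0.34 with a 95% interval of -0.65 to -0.04, which is 1.27-fold lower. By number, the difference was -0.50 for mice 4, -0.51 for mice 5 and -0.02 for mice 6. Leaving out single arrays gave -0.45 to -0.28, and leaving out both mice numbered 4 gave -0.26. With the replicate number as a block, the 95% interval of Itgal was -0.69 to 0.00 and included 0. Itgb2, the beta2 chain that pairs with alphaL and with the alpha chains of myeloid cells, did not go the same way. It read 7.66, 7.64 and 7.74 in the null livers and 7.74, 7.63 and 7.50 in the controls, with overlap, a difference of 0.05 and a 95% interval of -0.19 to 0.30.

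**Figure D2:**
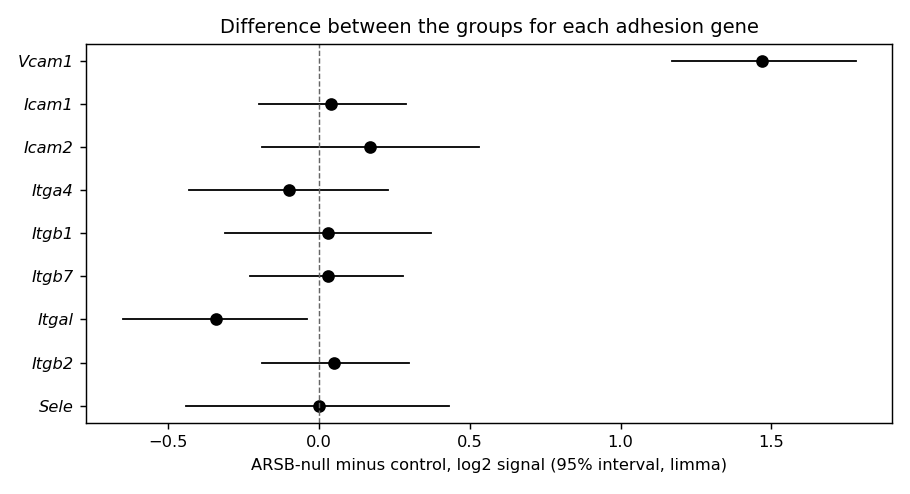
Difference of the mean log2 signals, ARSB-null minus control, for each of the 9 measured genes (points), with the 95% interval of the limma fit (lines) and a dashed line at 0. The interval of Vcam1, 1.17 to 1.78, lies apart from all the others, that of Itgal runs from -0.65 to -0.04, and the remaining 7 include 0. Vcam1 was chosen on this comparison, so its distance from the others is a description only.

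Beside Vcam1, the other 8 measured genes had a median difference of 0.03, where the median over all 35556 probe sets was 0.001 and the median size of a difference was 0.10. Apart from Vcam1 and Itgal, no difference exceeded 0.17 in size, and the intervals of those 7 genes lay between -0.44 and 0.53. The standard errors of the 9 genes were 0.10 to 0.18, against a median of 0.14 over all probe sets. In the fit over all probe sets, 1 of the 9 genes, Vcam1, was past an adjusted p of 0.05 (0.0197% of all probe sets were), 2 were without overlap (11.9%) and the same 2 were at an unadjusted p under 0.05 (5.94%). Nothing is read from these counts, because Vcam1 was chosen on this comparison. The call of Vcam1 was at the edge of the threshold: without any single one of the 6 arrays, 0 of the 9 genes were past it, and with the replicate number as a block, 0 were.

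The other genes of leukocyte adhesion and of the pathways that induce Vcam1 were taken from 9 lists with 147 genes, of which 136 were measured. Of these, 0 were past an adjusted p of 0.05 in limma (the smallest was 0.224, of Timp3), and 0 were in the analysis of variance run probe set by probe set. At an unadjusted p under 0.05 there were 15 (11%), 8 higher and 7 lower in ARSB-null liver, against 5.74% of the probe sets with 1 symbol. Without overlap there were 28 (20.6%, against 11.9% of all probe sets), 12 higher and 16 lower, and the median difference of the 136 genes was -0.009. The lists were chosen with earlier results of these data known, so nothing is read from these shares. When limma was run on the 21789 probe sets with 1 symbol alone, where 60 (0.275%) were past the threshold, Timp3 was the 1 context gene past it.

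Of 17 other endothelial and leukocyte adhesion molecules, 10 had a higher and 7 a lower mean, with a median difference of 0.06 and a range of -0.32 to 0.27. The smallest p belonged to Cd44, the hyaluronan receptor by which neutrophils are held in liver sinusoids, with 6.89, 7.20 and 7.03 in the null livers and 7.50, 7.41 and 7.17 in the controls. The groups overlapped by a narrow margin, and the difference of -0.32 was not past the threshold (limma, adjusted p = 0.839). Mcam, an adhesion molecule of endothelium and vessel wall cells, differed by -0.25 without overlap (adjusted p = 0.859).

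The other ligands of alpha4 and beta2 integrins included 11 measured genes, 8 with a higher and 3 with a lower mean (median 0.04, range -0.37 to 0.49). Jam2, a junctional molecule that alpha4beta1 can bind, gave 8.85, 8.94 and 9.21 in the null livers and 8.57, 8.49 and 8.46 in the controls. Every null liver lay above every control, and the difference of 0.49 was not past the threshold (limma, adjusted p = 0.543). Thbs1, a matrix glycoprotein released by platelets, differed by -0.37 (adjusted p = 0.879). Madcam1, the main partner of alpha4beta7, is named outside the rule for naming genes and was picked after its values were seen. It differed by 0.04 (adjusted p = 0.994).

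Of 21 other integrin subunits, 8 had a higher and 13 a lower mean (median -0.08, range -0.31 to 0.40). Itga9 encodes the alpha9 chain, which with beta1 also binds VCAM1. It read 8.79, 8.96 and 9.08 in the null livers and 8.45, 8.60 and 8.58 in the controls. The null livers were all above the controls, by a mean of 0.40 that was not past the threshold (limma, adjusted p = 0.647). Itga2, the collagen-binding alpha2 chain, differed by -0.30 (adjusted p = 0.794), again without overlap, and its signal lay under every array median. Among 21 genes that switch integrins on or signal from them, 10 had a higher and 11 a lower mean, and all lay between -0.23 and 0.21 (median -0.03). The smallest p values there were those of Vcl and Itgb1bp1. Vcl, the talin-binding protein vinculin, differed by -0.23 without overlap (adjusted p = 0.843). Itgb1bp1, a protein that binds the beta1 tail and restrains its activation, differed by -0.16 (adjusted p = 0.962).

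For the selectins, the 11 genes that build or carry their ligands had mostly lower means, 9 lower and 2 higher (median -0.11, range -1.05 to 0.10), and 0 of the 11 were past the threshold. Cd24a, a small glycoprotein that can serve P-selectin as a ligand, read 6.82, 6.57 and 5.96 in the null livers and 7.46, 8.21 and 6.85 in the controls. Its livers were widely spread within both groups and lay only just apart between them, and the difference of -1.05 had a 95% interval of -1.92 to -0.18 (limma, adjusted p = 0.759). Glg1, which encodes an E-selectin ligand of the Golgi and cell surface, differed by -0.22 without overlap (adjusted p = 0.843).

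**Figure D3:**
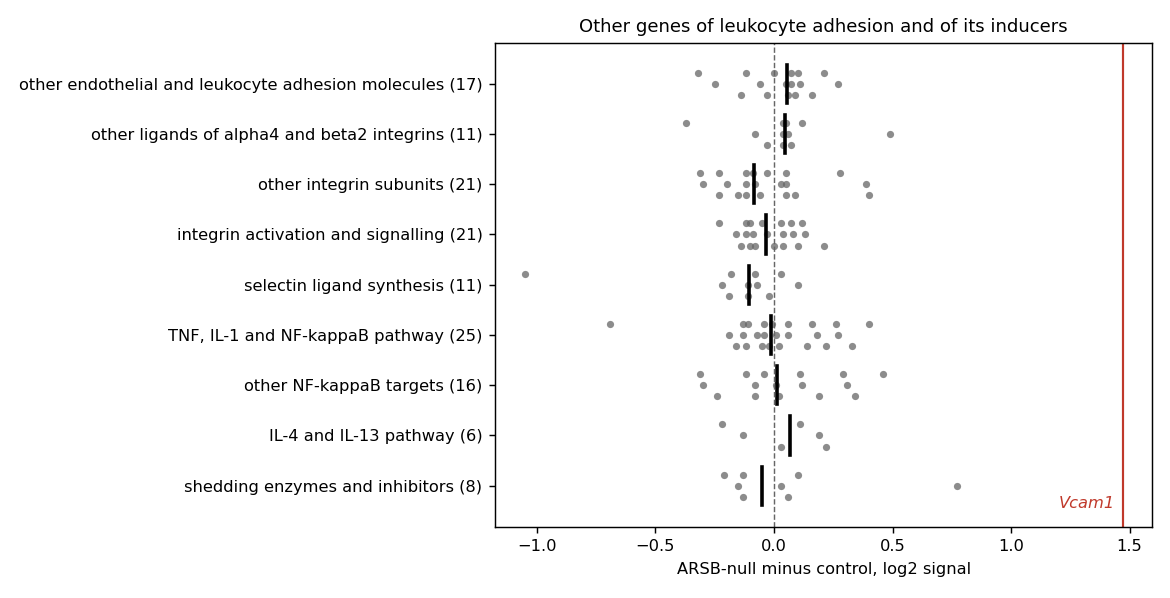
Difference of the mean log2 signals, ARSB-null minus control, for 136 other genes in 9 lists (grey points, number of measured genes in brackets), with the median of each list as a black bar, a dashed line at 0 and the difference of Vcam1, 1.47, as a red line. All points lie below the red line; the farthest are Timp3 at 0.77, Il1b at -0.69 and Cd24a at -1.05, and the medians of the lists lie between -0.11 and 0.07.

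Genes of the TNF, IL-1 and NF-kappaB pathway, which induces Vcam1 in endothelium, were evenly divided, with 12 higher and 13 lower of 25 measured (median -0.01, range -0.69 to 0.40). Il1b, the cytokine IL-1 beta, gave 6.13, 6.73 and 6.57 in the null livers and 7.13, 7.35 and 7.03 in the controls. All null livers lay below all controls, and the difference of -0.69 was not past the threshold (limma, adjusted p = 0.563). Tnfrsf1b, the second TNF receptor, differed by 0.40 with overlap (adjusted p = 0.826). Tnf itself, picked after its values were seen, differed by -0.04 (adjusted p = 0.994), and its signal lay under every array median. Nfkbia, picked in the same way, differed by 0.27 (limma, adjusted p = 0.838). It was the 1 gene of this list that was higher without overlap, and 3 were lower without overlap. The part of this pathway in the Vcam1 result was not tested.

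Among 16 other targets of NF-kappaB, 9 had a higher and 7 a lower mean (median 0.01, range -0.31 to 0.46). Ccl5, a chemokine for T cells and monocytes, read 8.65, 8.22 and 8.64 in the null livers and 8.11, 8.01 and 8.01 in the controls. The groups did not overlap, and the difference of 0.46 was not past the threshold (limma, adjusted p = 0.685). Ccl2, the chemokine that draws monocytes, differed by 0.31 (adjusted p = 0.731), also without overlap. The signal of Ccl2 lay under every array median. The cytokines IL-4 and IL-13 can also induce VCAM1 in cultured endothelium. Of 6 measured genes of their pathway, 4 had a higher and 2 a lower mean (median 0.07, range -0.22 to 0.22). Il13 differed by 0.22 (adjusted p = 0.907) and Il4 by 0.19 (adjusted p = 0.950). Both had mean signals under every array median. The part of this pathway in the Vcam1 result was not tested.

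VCAM1 is cut from the cell surface by ADAM17, which TIMP3 inhibits. Timp3 gave 9.71, 9.46 and 9.73 in the null livers and 8.86, 8.93 and 8.81 in the controls. The groups were clearly apart, with means of 9.63 ± 0.15 and 8.87 ± 0.06 (SD, n = 3 each). The difference of 0.77, with a 95% interval of 0.50 to 1.03, had an adjusted p of 0.224 over all probe sets and of 0.029 when limma was run on probe sets with 1 symbol alone. The protease gene Adam17 differed by -0.21 without overlap (limma, adjusted p = 0.905). Of the 8 genes for shedding enzymes and their regulators, 4 had a higher and 4 a lower mean (median -0.05). The arrays measured RNA and not VCAM1 protein at the cell surface, and a link of these genes to the Vcam1 result was not tested.

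Markers of the cells that can carry these molecules were measured in the same livers, by 8 lists with 93 genes, of which 90 were measured and 0 were past an adjusted p of 0.05 in limma (the smallest was 0.099, of Jchain). The mean log2 signal of 10 markers of sinusoidal endothelium was 9.67 to 9.75 in the null livers and 9.62 to 9.70 in the controls, with 6 higher and 4 lower means and a median difference of 0.04. Stab1, a scavenger receptor of sinusoidal endothelium that some macrophages share, had the largest difference, 0.49 without overlap (adjusted p = 0.621), and Ehd3, an endosomal protein, differed by 0.29 (adjusted p = 0.731). Lyve1, a hyaluronan receptor picked after its values were seen, went the other way without overlap, by -0.31 (adjusted p = 0.799). The 12 markers of vascular endothelium had means of 8.39 to 8.50 in the null livers and 8.34 to 8.41 in the controls (median difference 0.08). Egfl7, a secreted endothelial protein, differed by 0.33 (adjusted p = 0.621) and Eng, the co-receptor endoglin, by 0.24 (adjusted p = 0.840). On the log2 scale, the summed signal of the sinusoidal list was 13.42 to 13.53 in the null livers and 13.36 to 13.42 in the controls, and that of the vascular list 12.33 to 12.47 and 12.25 to 12.35. Both endothelial lists thus overlapped or touched between the groups, with medians a small fraction of the 1.47 of Vcam1. Their part in the Vcam1 result was not tested.

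Stellate cells and Kupffer cells can also carry VCAM1. The 10 markers of stellate cells and fibroblasts had means of 8.70 to 8.83 in the null livers and 8.64 to 8.73 in the controls (median difference 0.08), with summed log2 signals of 12.86 to 13.08 and 12.85 to 12.95. Reln and Des, matrix and filament genes of stellate cells, differed by 0.24 (limma, adjusted p = 0.851) and 0.15 (adjusted p = 0.964). The 13 markers of Kupffer cells and macrophages had 10 lower and 3 higher means, a median difference of -0.14 and means of 8.90 to 8.99 in the null livers against 8.90 to 9.23 in the controls, and their summed log2 signals were 13.13 to 13.22 and 13.08 to 13.46. Folr2, a folate receptor of resident macrophages, differed by -0.75 (adjusted p = 0.272) and Cd163, the haemoglobin scavenger receptor, by -0.77 (adjusted p = 0.355), both without overlap and opposite in sign to Vcam1. Cd68, a lysosomal glycoprotein of macrophages, and C1qa, a chain of complement C1q, were without overlap in the same direction as Vcam1 and were picked after their values were seen. Cd68 differed by 0.53 (adjusted p = 0.448) and C1qa by 0.39 (adjusted p = 0.568). The other C1q chains in the list, C1qb and C1qc, also picked after their values were seen, had lower means with overlap, by -0.13 and -0.14. The part of these cells in the Vcam1 result was not tested.

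The leukocytes that carry Itgal and Itgb2 were represented by 3 lists. The 13 measured markers of T and NK cells had means of 6.00 to 6.11 in the null livers and 5.90 to 6.21 in the controls (median difference -0.02), and summed log2 signals of 9.85 to 9.99 and 9.79 to 10.08. Ncr1 and Klrb1c, both receptors of NK cells, differed by 0.29 (limma, adjusted p = 0.859) and 0.30 (adjusted p = 0.952). The 9 measured markers of B and plasma cells had means of 6.21 to 6.27 and 5.96 to 6.23 (median difference 0.08), with summed log2 signals of 9.53 to 9.62 and 9.30 to 9.58. Jchain, the joining chain of secreted IgA and IgM, read 6.27, 6.34 and 6.10 in the null livers and 4.78, 5.20 and 4.83 in the controls. It was the marker gene with the largest difference, 1.30, without overlap (adjusted p = 0.099), whereas Cd79a of the B cell receptor differed by -0.40 (adjusted p = 0.747). The 13 measured markers of neutrophils and monocytes were the one list lower in every null liver, with means of 5.46 to 5.49 against 5.59 to 5.78 and summed log2 signals of 9.31 to 9.37 against 9.39 to 9.60 (median difference -0.12). Chil3, a chitinase-like protein of myeloid cells, differed by -0.78 (adjusted p = 0.485) and Ngp, a neutrophil granule protein, by -0.50 (adjusted p = 0.609). The means of all 3 lists lay under the lowest array median, 6.50, and it is not known how far these signals stand above background. The part of any of these cells in the lower Itgal signal was not tested.

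**Figure D4:**
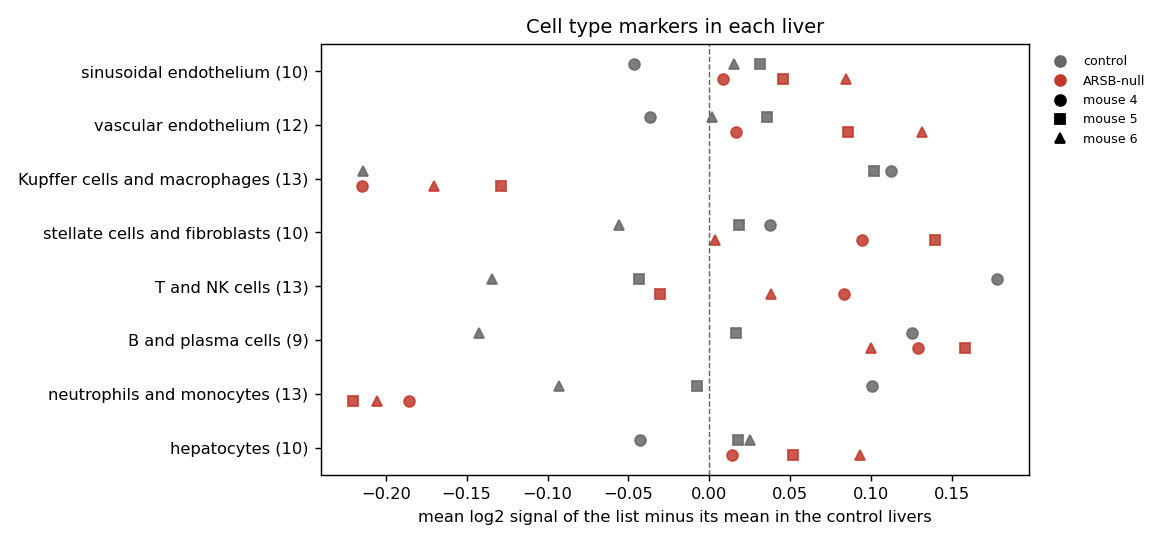
Mean log2 signal of each marker list in each liver, minus its mean over the 3 control livers (dashed line at 0), with controls in grey, ARSB-null livers in red, marker shape for the number of the mouse and the number of measured genes in brackets. The neutrophil and monocyte list is lower in all 3 null livers (5.46 to 5.49) than in any control (5.59 to 5.78), and the groups overlap in the other 7 lists. The means of the neutrophil and monocyte list lie under every array median, and their height above background is not known.

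The hepatocyte list, made up of plasma proteins and liver enzymes and factors, had means of 13.61 to 13.69 in the null livers and 13.55 to 13.62 in the controls (median difference 0.08), and its summed log2 signals, 17.04 to 17.11 and 16.96 to 17.03, were narrowly apart. The smallest p values in it were those of Hnf4a, a hepatocyte transcription factor, with -0.17 (limma, adjusted p = 0.964), and Ahsg, the plasma protein fetuin-A, with 0.13 (adjusted p = 0.973).

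Genes whose log2 signals ran most like those of Vcam1 were sought over the 6 livers by Pearson's r among 18339 genes, as a description without p-values. Any gene that separates the groups cleanly has a high r here, because the group difference makes up most of the spread of Vcam1. The highest r was that of Fcna, a plasma lectin of macrophages, with 0.997, and Fcna read 10.05, 10.03 and 10.03 in the null livers and 9.49, 9.58 and 9.45 in the controls. It differed by 0.53 (limma, adjusted p = 0.280). Next came Gsdma3, a gasdermin, with r = 0.994, and its difference was only 0.10. Renbp, an epimerase of amino sugars, Ntn4, a netrin of basement membranes, and Cables1, a partner of cyclin-dependent kinases, each had r = 0.992, with differences of 0.36, 0.56 and 0.71. Within the groups, where each liver's deviation from its group mean was used, the closest were Dele1, a mitochondrial stress protein, and Gne, the first enzyme of sialic acid synthesis, with r = 0.995. They were followed by the olfactory receptor gene Olfr679 with 0.992, Lpxn, the focal adhesion protein leupaxin, with 0.990 and the pheromone receptor gene Vmn1r4 with 0.988. None of these 5 is among the 5 genes closest over all livers. With so few livers and 18339 genes compared, r values this high can arise by chance alone. The signals of Gsdma3, Olfr679 and Vmn1r4 lay under every array median, as did those of Cables1 in the controls. Among the adhesion genes, r with Vcam1 over all 6 livers was lowest for Itgal, at -0.77, and was between -0.31 and 0.39 for the other 7. Within the groups the r of Itgal was 0.36 and that of Sele -0.64, each over 6 values of which the group means were already removed.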

How the data were processed

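Liver RNA of 3 ARSB-null and 3 control mice was hybridised to 1 Affymetrix mouse gene array each. The authors summarised the signals after quantile normalisation. RMA and Partek are named in the submitters' notes on processing. What they deposited is 1 log2 signal for every probe set on every array. For software versions and the genome build of the probe sets, nothing is given in the sources used here, and neither detection calls nor scanner files were used. Quantile normalisation hides a change shared by most genes, and the number of arrays limits the precision.

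Of 35556 probe sets, 21789 had 1 gene symbol in the platform annotation, 1621 several and 12146 none (0 symbols changed on updating). The brightest probe set of a gene by its mean over the 6 arrays was used. Groups were compared with limma (version 3.58.1 in R 4.3.3) by lmFit and eBayes, two-sided, with Benjamini-Hochberg adjustment over all probe sets and a threshold of 0.05. Intervals are 95% intervals of that fit. The script was tested on simulated data. An exact permutation test of 3 against 3 mice cannot give p under 0.1, so none was run.

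The members and gene lists were chosen with earlier results of these data known. Genes named are the 10 members, Arsb, the 2 genes with the smallest p of each list where none was past the threshold, and the 5 genes most like Vcam1 by either measure (predicted genes, microRNAs and snoRNAs left out). Pecam1, Cdh5, Emcn, Fga and Fgb stand in 2 lists each. Listed genes without a probe set of their own, among them Spp1, C3, Ptk2, Il1r1, Irak4, Ripk1, Chuk, Nfkb1, Il2rg, Jak3, Lck and Ly6c2, were not analysed here.

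Pairing of the mice by their number was checked by correlating deviations from the group means across probe sets. The correlation was 0.396 for mice 4, 0.159 for mice 5 and 0.193 for mice 6, all above 0.1, which meets the bar set here for pairing, although the labels give no shared litter or day. The values printed come from the fit without the block, as the methods name none, and the blocked values are given where they change a call or an interval's side of 0. Alternatives were this block, other sets of probe sets, other scaling, array weights, the methods' analysis of variance, and leaving out arrays.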

Additional observations from a re-analysis of the deposited data

How the results depend on the processing

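Limma on all probe sets called 2 higher and 5 lower, 1 adhesion gene (Vcam1) and 0 context genes. With the replicate block (the pairing by number) it called 1 higher and 3 lower, and 0 adhesion genes. With only probe sets of 1 symbol tested it called 27 higher and 33 lower, and 1 context gene, Timp3. With only probe sets above the median signal it called 5 higher and 7 lower. With array medians centred it called 1 higher, 6 lower and 0 adhesion genes, the difference of Vcam1 being 1.44. The analysis of variance called 1 higher and 1 lower, and 0 adhesion genes. Array weights gave 14 higher and 14 lower, and quantile normalisation repeated gave 2 higher and 6 lower. Vcam1 stayed called in both of these and in the 2 fits on other sets of probe sets. Without both arrays numbered 4, 1 higher, 0 lower and 0 adhesion genes were called. With single arrays left out, 1 was higher throughout, 3 to 6 were lower and 0 adhesion genes were called. The call of Vcam1 was thus lost in each of these smaller fits, while its difference stayed at 1.40 to 1.59. The cause of these changes was not tested. Of 124 values of single adhesion genes under the alternatives, 0 moved by more than 1 SD, and 17 changed sign, all of them for genes whose 95% interval includes 0. The block, the choice of probe sets and the analysis of variance cannot change a difference of means, so their values in this count were fixed beforehand. Mean and second-brightest probe sets gave no value, since each gene had 1 probe set. Signal over background is unknown here, which among the adhesion genes limits Sele and Itgb7 most. It also limits other named genes with mean signals under the array medians, such as Tnf, Il4, Il13, Jchain, Klrb1c, Ngp and Chil3.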
